A study of Mus musculus with 335 samples.

Results

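Nr2f1 (COUP-TFI) and Nr2f2 (COUP-TFII) are the genes described here, 2 of the 13448 entries with a gene symbol in the deposited table of estimated counts. They were picked by name, as the closely related COUP transcription factors, after it was known that the Ventral value of Nr2f1 turned on the deepest Ventral cell, so their levels are given as a description with no test. The data are Smart-seq2 profiles, a full-length single-cell RNA sequencing method, of 335 single cells from wild-type mouse embryos at E11.5. All came from the aorta-gonad-mesonephros region (AGM), where the first haematopoietic stem cells (HSCs) arise beside the dorsal aorta. The HSC group is 65 EPCR+CD45+ cells, a gate that contains the HSCs but is not limited to them. The Dorsal group is 93 Ngfr+Pdgfrb- cells taken dorsal to the aorta, and the Ventral group is 89 such cells taken ventral to it. Ngfr is a receptor of neural crest-derived cells, and the labels call both of these groups sympathoadrenal. The Mesenchymal group is 88 Pdgfrb+Ngfr- cells, also ventral, a gate that contains subaortic mesenchyme. Each group was sequenced as 1 pool with no animal named in the labels. A group therefore counts as 1 sample, cells are not replicates, and no p-value is given.

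COUP transcription factors are orphan members of the nuclear receptor superfamily, which bind DNA through a pair of zinc fingers and recognise direct repeats of a short half-site that retinoid receptors also use. They often act as repressors, and retinoic acid can raise their transcription. Nr2f2 is known for setting venous identity in endothelium, where it represses Notch signalling, and for its expression in the mesenchyme of many developing organs. Nr2f1 is known for patterning the cerebral cortex and for roles in neural crest derivatives, sensory organs and glia.

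Nr2f1 (ENSMUSG00000069171.14) lies at chr13:78188973-78199757 and Nr2f2 (ENSMUSG00000030551.14) at chr7:70351944-70366735, both on the minus strand of GRCm38 in GENCODE M21. Because they are paralogues, the stretch where their transcripts are most alike is shown, as it is where reads of one could be counted for the other. It is coding sequence of exon 1 of transcripts Nr2f1-201 and Nr2f2-201, in the zinc finger region, at chr13:78198254-78198372 and chr7:70360022-70360140. Both are read 5′ to 3′ on the transcript strand, and capitals mark the bases at which they differ.
Nr2f1: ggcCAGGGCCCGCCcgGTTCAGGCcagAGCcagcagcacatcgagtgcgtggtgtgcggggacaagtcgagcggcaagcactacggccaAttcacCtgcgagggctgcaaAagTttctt
Nr2f2: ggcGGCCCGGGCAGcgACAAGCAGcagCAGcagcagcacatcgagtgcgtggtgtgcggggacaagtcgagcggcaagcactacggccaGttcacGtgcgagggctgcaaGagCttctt
Of the 119 bases, 93 were the same and 26 differed, and an unbroken run of 59 bases was identical. A further identical run of 40 bases lies at chr13:78198167-78198206 and chr7:70359935-70359974. Over all annotated transcripts, 39 of 5090 distinct 31-base words of Nr2f1 (0.766%) also occurred in Nr2f2, and 39 of 8550 of Nr2f2 (0.456%) in Nr2f1. Neither gene shared such a word with Nr2f6, the third family member. Reads from outside these stretches can tell the genes apart, although the annotation behind the deposited counts is not given in the sources used here.

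HSC cells held between 276480 and 7093614 estimated counts, Dorsal cells between 279531 and 3861567, Ventral cells between 149501 and 20481041, and Mesenchymal cells between 126979 and 6200804. The deepest Ventral cell, Ventral 41 (cells are numbered within a group in accession order), held 18.5% of the Ventral counts. Wells are told apart by pairs of indices, and all 96 index pairs were used in at least 2 pools, 55 of them in all 4. The sort genes followed the gates only in part. At least 5 Ngfr counts were found in 87.1% of Dorsal and 52.8% of Ventral cells, and at least 5 Pdgfrb counts in 79.5% of Mesenchymal cells. At least 5 counts of Sox10, the neural crest and glial factor, were found in 94.6% of Dorsal and 49.4% of Ventral cells.

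Nr2f1 was high in most Mesenchymal cells, uneven in Dorsal and Ventral cells, and close to 0 in HSC. Values are counts per 1000000 (CPM). Single HSC cells had a lowest, median and highest Nr2f1 level of 0, 0 and 1.91 CPM. Dorsal cells had 0, 19.9 and 238 CPM, Ventral cells 0, 5.19 and 584 CPM, and Mesenchymal cells 0, 108 and 718 CPM. The ranges of Dorsal, Ventral and Mesenchymal cells overlapped, while every HSC cell lay below the median of each of the other groups. The upper quartile of Ventral cells, 36.2 CPM, lay under the lower quartile of Mesenchymal cells, 56.7 CPM, which the upper quartile of Dorsal cells, 65.8 CPM, did not. With counts summed over a group, Nr2f1 stood at 0.163 CPM in HSC (95% Poisson limits 0.0876 to 0.276, from 13.4 counts) and at 44.2 CPM in Dorsal (42.9 to 45.4). It stood at 129 CPM in Ventral (127 to 131) and 115 CPM in Mesenchymal (113 to 118). These limits cover counting error only, not the spread between cells or embryos, and the order of Ventral and Mesenchymal in the sums is the opposite of that in the medians.

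Nr2f2 had the same group with the highest median and the same group near 0. Single HSC cells had a lowest, median and highest level of 0, 0 and 1.87 CPM, Dorsal cells 0, 33.7 and 354 CPM, Ventral cells 0, 23.6 and 453 CPM, and Mesenchymal cells 0, 160.4 and 626 CPM. Here Dorsal and Ventral cells had similar medians and overlapping quartiles, 3.30 to 88.7 CPM in Dorsal and 2.56 to 92.1 CPM in Ventral. Mesenchymal quartiles of 55.5 and 284 CPM lay higher but overlapped both. Summed over a group, Nr2f2 stood at 0.107 CPM in HSC (0.0483 to 0.204, from 8.81 counts), 63.8 CPM in Dorsal (62.3 to 65.3), 90.7 CPM in Ventral (88.96 to 92.5) and 178 CPM in Mesenchymal (175 to 181). The order of Dorsal and Ventral again depended on whether sums or medians were read.

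**Figure D1:**
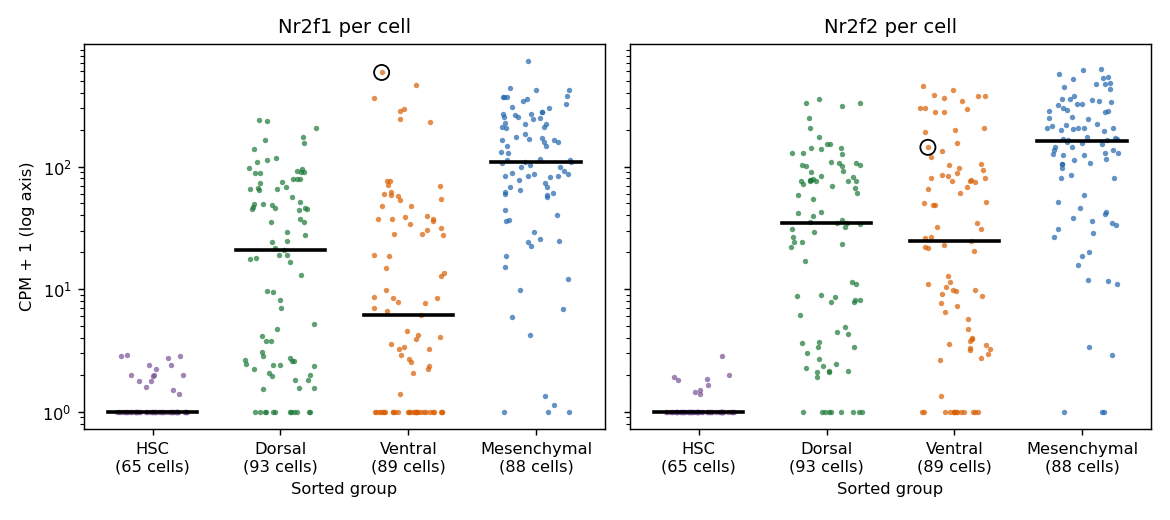
Nr2f1 (left) and Nr2f2 (right) in each cell as CPM + 1 on a log axis, by sorted group, with a bar at the median and a circle around Ventral 41. HSC cells sit at or near 0, and Mesenchymal medians are 108 CPM for Nr2f1 and 160.4 CPM for Nr2f2. Dorsal and Ventral cells spread widely from 0, up to 238 and 584 CPM for Nr2f1 and 354 and 453 CPM for Nr2f2.

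To compare shares of positive cells across depths, each cell was thinned to 310000 counts and called positive at 5 counts or more. Nr2f1 was positive in 0 of 64 HSC cells, 51 of 92 Dorsal cells (55.4%, Clopper-Pearson limits 44.7 to 65.8), 29 of 80 Ventral cells (36.2%, 25.8 to 47.8) and 60 of 69 Mesenchymal cells (86.96%, 76.7 to 93.9). Unthinned, the shares were 0%, 62.4%, 42.7% and 88.6%. Nr2f2 was positive in 0 of 64 HSC cells, 55 of 92 Dorsal cells (59.8%, 49.04 to 69.9), 43 of 80 Ventral cells (53.8%, 42.2 to 64.97) and 61 of 69 Mesenchymal cells (88.4%, 78.4 to 94.9). Unthinned, these were 0%, 67.7%, 64.04% and 88.6%. The count of 0 in HSC allows a share of up to 4.69% as 3 of 64 cells, and its Clopper-Pearson upper limit is 5.60%. These limits cover counting error over the cells of 1 pool, so they describe each share and do not test a difference between groups.

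Ventral Nr2f1 rested on a single cell. Ventral 41 held 11962 of the group's 14302 Nr2f1 counts, 83.6%, and with 584 CPM it was the highest Ventral cell and the second of all cells, after a Mesenchymal cell with 718 CPM. Its Nr2f2 was less extreme: 2917 of 10035 counts, 29.1%, and 142 CPM, which ranked 17 among Ventral cells. Without Ventral 41 the summed Ventral Nr2f1 level was 25.96 CPM (24.9 to 27.04) in place of 129 CPM, and the Nr2f2 level 78.98 CPM (77.2 to 80.8) in place of 90.7 CPM. In Dorsal no cell held more than 8.40% of the Nr2f1 or 8.70% of the Nr2f2 counts, and in Mesenchymal the highest shares were 5.57% and 8.46%. To reach 50% of a group's Nr2f1 counts took 11 Dorsal cells, 1 Ventral cell and 15 Mesenchymal cells.

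Ventral 41 carried some but not all markers of mesenchyme and little of the genes it was sorted and labelled by. It held 563 CPM of Prrx1, a factor of limb and craniofacial mesenchyme, 167 CPM of Osr2, a factor of limb, palate and kidney mesenchyme, and 2479 CPM of Adh1, an enzyme that oxidises retinol. Its summed level of 6 measured mesenchyme markers, 1382 CPM, ranked 5 among Ventral cells. Other genes went the other way. Of the coelomic and mesonephric markers, a list that holds Osr2, Wt1 had 0.0691 CPM, Pax8 18.4 CPM, and Gata4 and Pax2 0. Snai2, a crest and mesenchyme factor, had 1085 Ventral counts with or without this cell. Ngfr stood at 7.45 CPM and Sox10 at 0.132 CPM, and Pdgfrb and Ptprc, which encodes CD45, had 0 counts. A total of 17 Ventral wells share an i7 or i5 index with it. At least 5 Nr2f1 counts were found in 7 of these 17 wells (41.2%) and in 30 of the 71 others (42.3%). For Nr2f2 the numbers were 13 of 17 (76.5%) and 43 of 71 (60.6%). Adh1 differed, with 16 of 17 sharing wells and 6 of 71 others. These shares do not cover Nr2f1 counts below 5, where its median lay in both sets of wells. The median Nr2f1 count was 3.50 in the sharing wells and 2.53 in the others, or 5.99 and 3.08 CPM. Median Adh1 levels were 24.2 CPM in the sharing wells and 0.342 CPM in the others. Whether Nr2f1 counts of Ventral 41 were assigned to wells that share its index was not tested. Without Ventral 41 and those 17 wells, Ventral Nr2f1 stood at 25.5 CPM and Nr2f2 at 65.2 CPM.

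The order of Dorsal and Ventral for Nr2f1 turned on how cells were weighted. On the scale of log2 (CPM + 1), used for every fold here, Dorsal against Ventral was -1.53 in all cells, 0.74 without Ventral 41 and 0.00 with cells weighted equally. The mean over cells was 42.1 ± 53.9 CPM in Dorsal and 42.03 ± 99.4 CPM in Ventral (SD over 93 and 89 cells). For Nr2f2 the fold was -0.50, and -0.30 without Ventral 41, with means over cells of 61.6 ± 78.4 CPM in Dorsal and 80.8 ± 118 CPM in Ventral. Against Mesenchymal, Dorsal was lower for both genes, with folds of -1.36 for Nr2f1 and -1.47 for Nr2f2. Ventral against Mesenchymal gave 0.17 for Nr2f1, which became -2.11 without Ventral 41. For Nr2f2 it gave -0.97, and -1.16 without it. HSC against Mesenchymal gave -6.64 and -7.34.

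**Figure D2:**
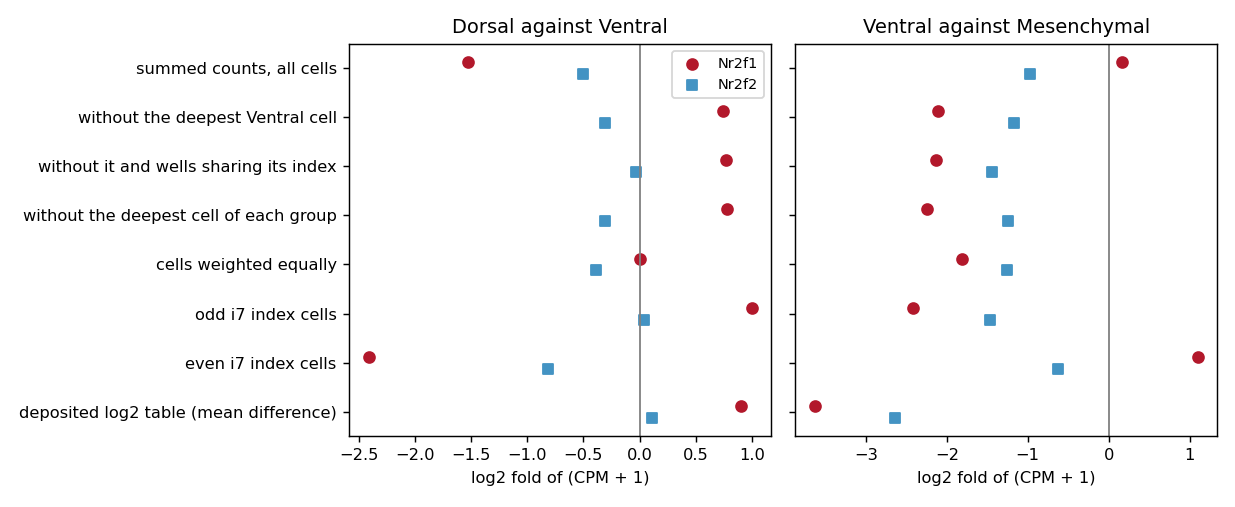
Log2 folds of Nr2f1 (circles) and Nr2f2 (squares) for Dorsal against Ventral (left) and Ventral against Mesenchymal (right) under 8 ways of computing them; the row for the deposited log2 table is a difference of mean log values. Nr2f1 lies on either side of 0 for Dorsal against Ventral, at -1.53 with all cells and at 0.74 without Ventral 41.

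Per kilobase of the longest coding transcript, 3207 bases for Nr2f1 and 4222 for Nr2f2, the genes had similar summed levels in Dorsal and in Mesenchymal, while in Ventral their order turned on Ventral 41. Nr2f1 stood at 13.8, 40.3 and 35.9 CPM per kilobase in Dorsal, Ventral and Mesenchymal, and Nr2f2 at 15.1, 21.5 and 42.2. Without Ventral 41 the Ventral values were 8.10 for Nr2f1 and 18.7 for Nr2f2. Among cells with at least 5 counts of both, the median log2 ratio of Nr2f2 to Nr2f1 per length was 0.10 in 49 Dorsal, -0.31 in 33 Ventral and -0.15 in 70 Mesenchymal cells. Single cells ran from -5.71 to 6.42 in Dorsal and from -5.57 to 6.86 in Ventral, so either gene could be far ahead of the other in a cell. The annotation also holds coding transcripts of 721 bases for Nr2f1 and 636 bases for Nr2f2, and the transcript mix is not known, so the order of the genes on this scale depends on the transcript assumed.

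The genes were found together in most Mesenchymal cells and less regularly elsewhere. After thinning, 38 of 92 Dorsal cells (41.3%) were positive for both, 13 for Nr2f1 alone, 17 for Nr2f2 alone and 24 for neither. In Ventral 20 of 80 (25%) were positive for both, 9 for Nr2f1 alone, 23 for Nr2f2 alone and 28 for neither. In Mesenchymal 54 of 69 (78.3%) were positive for both and 2 for neither. As 86.96% of these cells were positive for Nr2f1 and 88.4% for Nr2f2, most would hold both even if the genes varied independently. Across cells of a group, which share a library, the Spearman correlation of the genes was 0.447 in Dorsal (93 cells), 0.440 in Ventral (89 cells; 0.432 without Ventral 41) and 0.167 in Mesenchymal (88 cells). When cells were split by odd or even i7 index it was 0.475 or 0.372 in Dorsal, 0.462 or 0.408 in Ventral and 0.340 or 0.015 in Mesenchymal. The correlation with the total count of a cell was between -0.115 and 0.135 for either gene in these 3 groups.

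**Figure D3:**
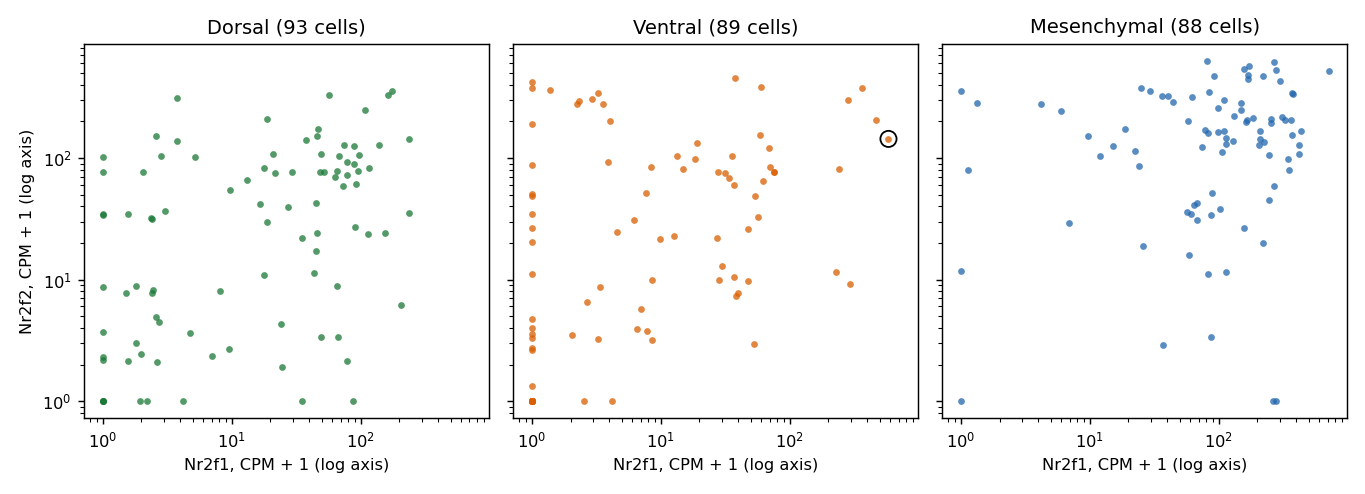
Nr2f2 against Nr2f1 in each cell of Dorsal, Ventral and Mesenchymal, as CPM + 1 on log axes, with a circle around Ventral 41. Ventral holds cells with high Nr2f2 and little or no Nr2f1 at the upper left, and Mesenchymal cells gather at the upper right, with 78.3% positive for both.

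Within the Ngfr+ groups, the levels are described by marker class. The cut by Sox10 was planned, while the further classes were chosen after values were seen and lend no independent support. Cells were first divided by Sox10, at 5 thinned counts, into 79 Dorsal and 38 Ventral cells with it and 13 Dorsal and 42 Ventral cells without. In Sox10-positive cells the lowest, median and highest Nr2f1 levels were 0, 34.5 and 238 CPM in Dorsal and 0, 15.9 and 243 CPM in Ventral. For Nr2f2 they were 0, 40.4 and 354 CPM in Dorsal and 0, 28.5 and 295 CPM in Ventral, so the sides overlapped over nearly their whole range for both genes. Summed over these cells, Nr2f1 was 51.1 CPM in Dorsal cells and 31.1 CPM in Ventral cells, which gives a log2 fold of 0.70. Summed Nr2f2 was 66.3 CPM in Dorsal cells and 44.1 CPM in Ventral cells, with a log2 fold of 0.58. Shares of positive cells were 64.6% (52.99 to 75) in Dorsal and 47.4% (30.98 to 64.2) in Ventral for Nr2f1, and 65.8% (54.3 to 76.1) and 60.5% (43.4 to 75.96) for Nr2f2. Ventral 41 is not among these cells, and 9 Dorsal and 7 Ventral cells lay within 3 to 7 counts of Sox10.

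The 42 Ventral cells without Sox10 held the widest range, and a split by further markers, chosen after their values were seen, set the genes apart. In 11 cells with Wt1 or Pax2, factors of the coelomic lining and the mesonephros, Nr2f2 was 87.1, 279 and 453 CPM at the lowest, the median and the highest, and reached 5 counts in 11 of 11 cells (limits 71.5 to 100%). Nr2f1 in the same cells was 0, 2.25 and 36.6 CPM and reached 5 counts in 1 of 11 (9.09%, 0.230 to 41.3). Per kilobase the lowest Nr2f2 level of these cells, 20.6 CPM, lay above their highest Nr2f1 level, 11.4 CPM. All 11 had Wt1, between 14.5 and 283 CPM, 10 had Ngfr, and Pdgfra and Pdgfrb had 0 counts in each. The only Dorsal cell of this kind had 2.77 CPM Nr2f1 and 312 CPM Nr2f2. With marker thresholds of 3 or 10 counts there were 9 or 12 such Ventral cells, of which all were positive for Nr2f2 and 1 for Nr2f1. Wt1 was also found in 4 Ventral cells with Col3a1 and 1 with Sox10, which stand in those classes. The 4 with Col3a1 had Nr2f1 between 57.5 and 361 CPM and Nr2f2 between 74.9 and 376 CPM, and were positive for both genes. Over all 16 Ventral cells with Wt1, whatever else they had, Nr2f2 was positive in 16 and Nr2f1 in 5 (31.2%), with medians of 287 and 2.75 CPM, so little Nr2f1 was a feature of the Wt1 cells without Col3a1 and not of every Wt1 cell.

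In 11 Ventral cells with Col3a1, a fibrillar collagen of mesenchyme, Nr2f1 was 0, 74.9 and 584 CPM at the lowest, the median and the highest, and Nr2f2 0, 74.9 and 376 CPM. Each gene reached 5 counts in 8 of the 11. Ventral 41 is among them, and without it the medians were 66.2 CPM Nr2f1 and 52.5 CPM Nr2f2 in 10 cells. At a marker threshold of 10 counts there were 9 such cells, Ventral 41 among them, with medians of 284 CPM Nr2f1 and 142 CPM Nr2f2. At 3 counts there were 12, again with Ventral 41, and the medians were 46.8 CPM Nr2f1 and 52.5 CPM Nr2f2. The order of the genes in this class thus turned on the threshold. Ngfr reached 5 counts in 2 of the 11 cells, Pdgfra in 6 and Wt1 in 4. In 8 Ventral cells with Ptprc, all of which also had Csf1r, the macrophage growth factor receptor, neither gene reached 5 counts, and the highest values were 6.79 CPM Nr2f1 and 4.76 CPM Nr2f2. The 6 Dorsal cells with Ptprc were alike, with highest values of 1.23 and 1.14 CPM. One Ventral cell with Cdh5, an endothelial cadherin, had 0 Nr2f1 counts and 190.0 CPM Nr2f2, beside 1167 CPM Kdr and 2355 CPM Emcn. The 11 Ventral cells with none of these markers had medians of 0 CPM Nr2f1 and 2.56 CPM Nr2f2, with 5 counts reached in 2 and 0 of them. In 5 such Dorsal cells the medians were 1.07 CPM Nr2f1 and 7.14 CPM Nr2f2, and 1 Dorsal cell had Col3a1, with 0 and 1.30 CPM.

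**Figure D4:**
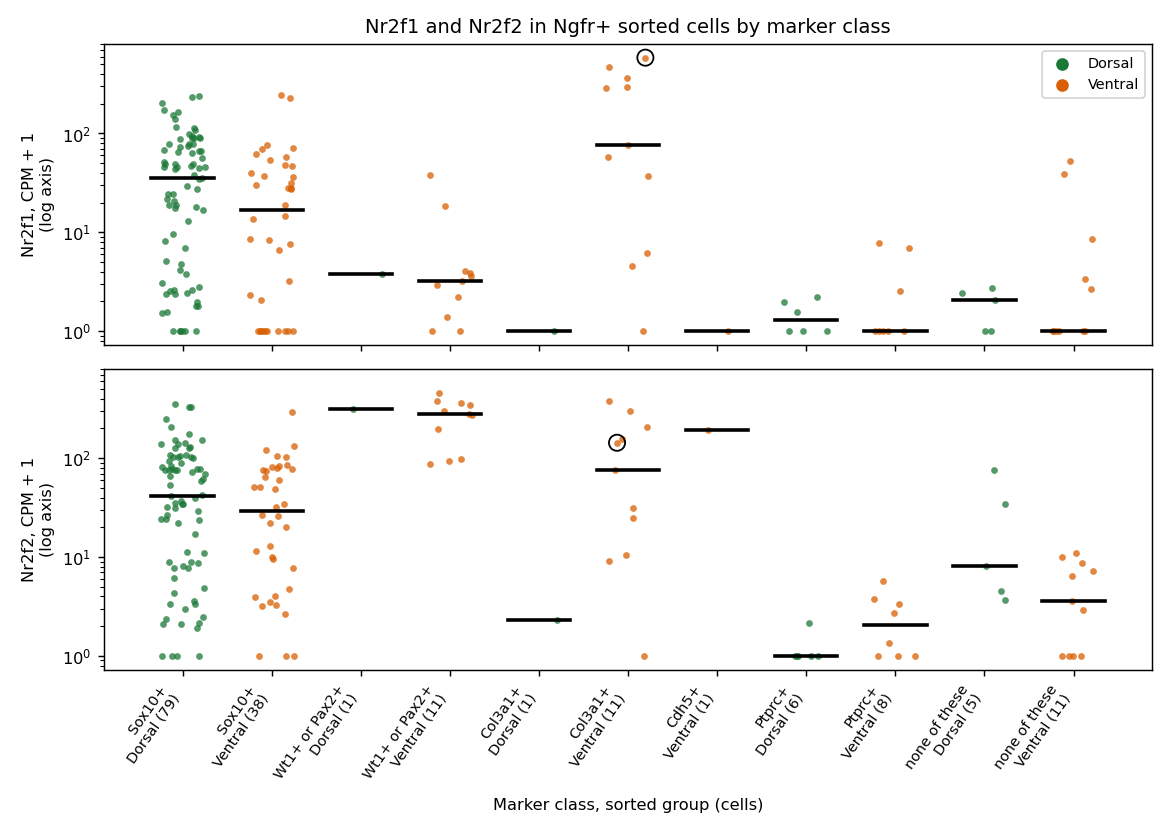
Nr2f1 (top) and Nr2f2 (bottom) in Dorsal and Ventral cells as CPM + 1 on a log axis, by marker class, with a bar at the median, the number of cells in brackets and a circle around Ventral 41. Ventral cells with Wt1 or Pax2 have medians of 279 CPM Nr2f2 and 2.25 CPM Nr2f1, those with Col3a1 have a median of 74.9 CPM of each, and cells with Ptprc have little of either.

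Correlations with the summed levels of whole marker lists followed the classes only in part. In Dorsal the rho with 6 crest and glial markers was 0.539 for Nr2f1 and 0.627 for Nr2f2, but in Ventral it was 0.112 and -0.137. The rho with 6 mesenchyme markers was 0.412 for Nr2f1 and 0.589 for Nr2f2 in Dorsal, and 0.533 and 0.303 in Ventral, so the gene with the higher value differed between the sides. With 7 macrophage markers it was -0.224 and -0.346 in Dorsal and near 0 in Ventral, at -0.036 and -0.143, although Ventral cells with Ptprc had little of either gene. With 6 coelomic and mesonephric markers the Ventral rho was 0.158 for Nr2f1 and 0.505 for Nr2f2, and 0.201 and 0.555 without Pax8, which reached 5 counts in every cell of all 4 groups. These are descriptions over 93 or 89 cells that share a library and, for the markers and the genes, the same depth.

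Among Mesenchymal cells both genes varied with subtype markers, and not always in the same direction. In 20 cells with Wt1 the median Nr2f2 was 280.1 CPM, against 136 CPM in 49 without. Nr2f1 medians were 147 and 108 CPM. In 33 cells with Acta2, the smooth muscle actin, median Nr2f2 was 136 CPM, against 203 CPM in 36 cells without, and Nr2f1 was 127 and 108 CPM. In 43 cells with Rgs5, a pericyte gene, Nr2f2 was 193 CPM, against 139 CPM in 26 without, and Nr2f1 was 112 and 111 CPM. The Nr2f1 medians were close there, but its lower quartiles were 65.3 CPM with Rgs5 and 14.2 CPM without, and its positive shares 95.3% and 73.1%. In 57 cells with Pdgfra, a mesenchymal growth factor receptor, median Nr2f2 was 193 CPM, against 125.5 CPM in 12 cells without, and Nr2f1 was 127 and 77.5 CPM. Quartiles of Nr2f2 were 191 to 339.6 CPM with Wt1 and 44.5 to 205 CPM without, so the middle parts of these classes overlapped only narrowly. With the 5 smooth muscle markers the rho was -0.326 for Nr2f2 and -0.120 for Nr2f1. With the 6 mesenchyme markers, a list that holds Pdgfra, it was -0.242 for Nr2f2 and 0.052 for Nr2f1. For Nr2f2 the whole list thus went opposite to the Pdgfra split.

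The HSC group lacked both genes, and its cells carried endothelial transcripts. The endothelial role for which Nr2f2 is known is in veins, and whether these transcripts are venous was not tested. Cdh5 reached 5 counts in 59 of 65 HSC cells and Emcn in 46 of 65, and 6 endothelial markers summed to 868 CPM. Nr2f1 had a trace in 16 of these cells and Nr2f2 in 9, and the highest estimated count of either gene in an HSC cell was 2.33. At least 1 thinned count was found in 7.81% of HSC cells for each gene. At 5 thinned counts the share was 0%, and no expression is read from the traces.

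The genes whose levels ran most like Nr2f1 and Nr2f2 were sought by the Spearman rho across cells, computed within Dorsal, Ventral and Mesenchymal and averaged, among 6974 genes. For Nr2f1 the list was Foxp2 (mean rho 0.384), Adamts1 (0.352), Nr2f2 (0.352), Col1a2 (0.346), Sfrp1 (0.343), Rcn1 (0.343), Limch1 (0.343) and Sparc (0.341). The median over all genes compared was 0.013 and the 99th percentile 0.224. Foxp2 is a forkhead transcription factor, Adamts1 a matrix protease, Sfrp1 a secreted Wnt antagonist, and Col1a2 and Sparc matrix genes. The lowest rho among the 3 groups was 0.281 for Foxp2 and 0.282 for Adamts1, and 0.0484 for Col1a2, in Mesenchymal. By mean rho Nr2f2, the paralogue, thus ranked 3 of 6974 genes, with a rho of 0.447 in Dorsal, 0.440 in Ventral and 0.167 in Mesenchymal. The mean rho of ranks 2 to 8 ran only from 0.352 to 0.341, so their order rests on small differences.

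For Nr2f2 the values were higher. Hmga2 led with a mean rho of 0.514, before Mest (0.486), Phldb2 (0.481), Igfbp5 (0.392), Lhfpl2 (0.386), Gpc6 (0.374), Mdk (0.363) and Vcan (0.361), against a median of 0.032 and a 99th percentile of 0.260 over all genes compared. Hmga2 encodes a chromatin protein of embryonic cells, Mest is an imprinted gene of embryonic mesoderm, and Gpc6, Mdk and Vcan encode a glypican, the growth factor midkine and the proteoglycan versican. Nr2f1 ranked 11 on this list. Most of these relations were weak in Mesenchymal: Vcan had a rho of 0.720 in Dorsal, 0.479 in Ventral and -0.114 in Mesenchymal, and Phldb2 had 0.658, 0.454 and 0.330.

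**Figure D5:**
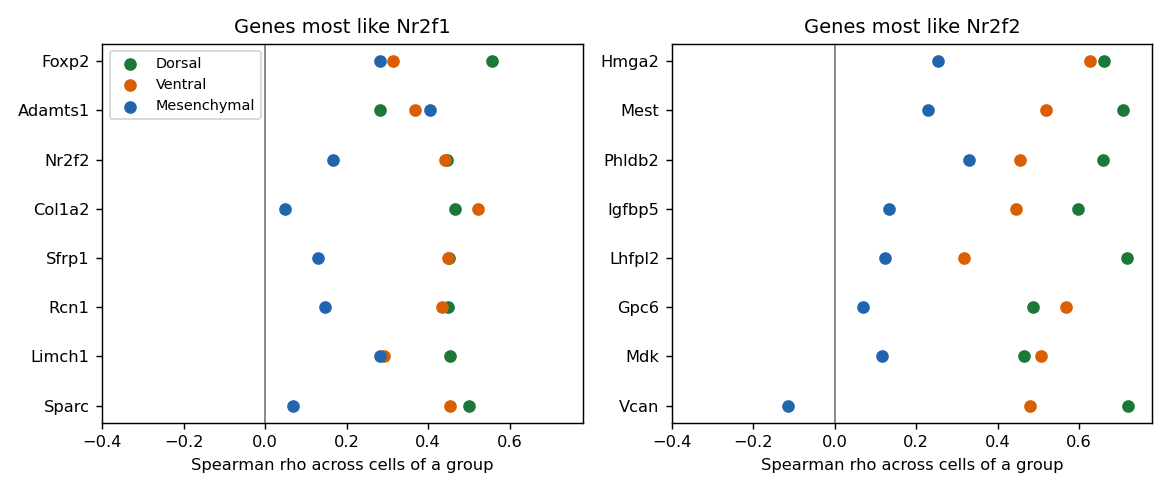
Spearman rho across the cells of Dorsal, Ventral and Mesenchymal for the 8 genes most like Nr2f1 (left) and the 8 most like Nr2f2 (right), ordered by mean rho. Mesenchymal values are the lowest of the 3 for all but Adamts1.

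Ranked within single groups, the leading genes differed. For Nr2f1 they were Fign (0.565), Foxp2 (0.556) and Adgra3 (0.529) in Dorsal, Col1a2 (0.523), Amotl2 (0.507) and Plagl1 (0.474) in Ventral, and Olfr46 (0.421), Gpaa1 (0.409) and Adamts1 (0.405) in Mesenchymal. For Nr2f2 they were Vcan (0.720), Lhfpl2 (0.717) and Mest (0.709) in Dorsal, Hmga2 (0.628), Meis2 (0.575) and Gpc6 (0.568) in Ventral, and Pdlim4 (0.456), Lbh (0.438) and Smim7 (0.389) in Mesenchymal. Meis2, a homeobox cofactor, had a rho with Nr2f2 of 0.575 in Ventral but -0.247 in Dorsal.

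Other nuclear receptors of the family had other patterns. A gene counted as differing at 2-fold or more among genes with at least 100 counts over both groups. Of 6 further NR2 and RXR genes tested, 2 were higher and 0 lower in Dorsal against Ventral, where 10.1% of all genes were higher and 8.3% lower. Rxrg, a retinoid X receptor, stood at 18.99 CPM in Dorsal, against 2.99 CPM in Ventral, and Rxrb at 20.2 and 7.52 CPM. Against Mesenchymal, 2 were higher and 0 lower in Dorsal (17.5% and 9.68% of all genes). In Ventral 1 was higher and 2 were lower (17.1% and 12.9%), or 2 and 2 without Ventral 41 (17.8% and 10.7%). The median log2 fold of the 6 was 0.55 in Dorsal against Ventral, 0.18 in Dorsal against Mesenchymal and 0.42 in Ventral against Mesenchymal, where the medians of all genes were 0.14, 0.15 and 0.09. Without Ventral 41 it was 0.27 in Dorsal against Ventral and 0.63 in Ventral against Mesenchymal, where those of all genes were 0.0091 and 0.17. Nr2f6, the closest relative of the COUP factors, was higher in both, with 35.8 CPM in Dorsal cells and 30.8 CPM in Ventral cells, against 12.4 CPM in Mesenchymal. It was positive in 67.4% of Dorsal, 62.5% of Ventral and 36.2% of Mesenchymal cells after thinning, so the group with the highest shares for Nr2f1 and Nr2f2 had the lowest for Nr2f6. HSC had 1 higher and 2 lower of 5 tested (16.6% and 22.6%), with Nr2c2, a testicular orphan receptor, at 71.5 CPM in HSC and 23.2 CPM in Mesenchymal.

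Genes of retinoid signalling, which can raise COUP factors and whose receptors share their half-sites, had more members lower than higher against Mesenchymal. Of 13 tested in Dorsal against Mesenchymal 1 was higher and 7 were lower (17.5% and 9.68% of all genes). Of 14 in Ventral against Mesenchymal 2 were higher and 4 lower (17.1% and 12.9%), or 2 and 5 without Ventral 41 (17.8% and 10.7%). The median log2 fold of the list was -1.27 in Dorsal against Mesenchymal and -0.43 in Ventral against Mesenchymal. Crabp1, a retinoic acid binding protein, stood at 54.7 CPM in Dorsal cells and 55.9 CPM in Ventral cells, against 763 CPM in Mesenchymal. Rarb, a retinoic acid receptor, stood at 14.2 and 8.27 CPM, against 50.4 CPM. Aldh1a2, which makes retinoic acid, stood at 7.29 CPM in Dorsal cells and 58.3 CPM in Ventral cells, against 112 CPM in Mesenchymal. Aldh1a3, another such enzyme, went the other way, at 46.9 CPM in Dorsal, 9.74 CPM in Ventral and 5.26 CPM in Mesenchymal. In Dorsal against Ventral 1 of 12 was higher and 2 were lower (10.1% and 8.3% of all genes). One of the lower genes, Aldh1a1, had 0 counts in Dorsal, against 71.6 CPM in Ventral, or 0.450 CPM without Ventral 41. In HSC against Mesenchymal 1 of 14 was higher and 9 were lower (16.6% and 22.6% of all genes). The median was -2.40, where that of all genes was -0.10.

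Among 8 measured cofactors of COUP factors, 1 was higher and 2 were lower in Dorsal against Ventral (10.1% and 8.3% of all genes). Without Ventral 41 these counts were 0 and 1 (6.57% and 6.83%). Zfpm2, which encodes the cofactor FOG2, stood at 0.954 CPM in Dorsal cells and 1.25 CPM in Ventral cells, against 16.7 CPM in Mesenchymal. Bcl11a, a zinc finger repressor that binds COUP factors, stood at 163 CPM in HSC, 15.2 CPM in Dorsal and 33.8 CPM in Ventral, against 70.2 CPM in Mesenchymal. Its paralogue Bcl11b stood at 0.586, 11.4, 5.11 and 1.30 CPM in the same groups. The corepressor Ncor1 was even, at 164, 136, 119 and 141 CPM. Against Mesenchymal the list gave 1 higher and 2 lower in Dorsal (17.5% and 9.68% of all genes). In Ventral it gave 2 and 3 (17.1% and 12.9%), or 1 and 1 without Ventral 41 (17.8% and 10.7%). HSC had 1 and 2 (16.6% and 22.6%). No difference from all genes is read from such counts among 8 genes. The medians of the list lay between -0.43 and 0.0096 in the 4 comparisons.

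Of 14 measured genes of vein and artery identity, the setting in which Nr2f2 is best described, 1 was higher and 1 lower in Dorsal against Ventral (10.1% and 8.3% of all genes), and 1 and 2 without Ventral 41 (6.57% and 6.83%). Nrp1, a semaphorin and VEGF coreceptor, stood at 293 CPM in Dorsal, against 127 CPM in Ventral. Against Mesenchymal 5 of 12 tested were higher and 5 lower in Dorsal (17.5% and 9.68% of all genes), 3 and 4 of 14 in Ventral (17.1% and 12.9%), 4 and 4 in Ventral without Ventral 41 (17.8% and 10.7%), and 5 and 5 of 14 in HSC (16.6% and 22.6%). The median of the list was 0.41 in Dorsal against Ventral, or 0.13 without Ventral 41. Against Mesenchymal it was -0.32 in Dorsal, -0.30 in Ventral, or -0.15 without Ventral 41, and 0.04 in HSC. Hey2, a Notch target of arteries, stood at 0.0335 CPM in HSC, 1.09 CPM in Dorsal and 0.435 CPM in Ventral, against 17.3 CPM in Mesenchymal, the group with the most Nr2f2. Angpt1, a ligand of the receptor Tek, stood at 231 CPM in HSC and 64.2 CPM in Mesenchymal. Of 9 measured neural crest factors, 5 were higher and 1 lower in Dorsal against Ventral, and 3 and 1 without Ventral 41, with medians of 1.05 and 0.76. Against Mesenchymal 6 of 9 were higher and 2 lower in Dorsal, 5 and 2 of 8 in Ventral with or without Ventral 41, and 0 and 3 of 5 in HSC, beside the same shares of all genes as for the vein and artery list. Tfap2b, a crest and sympathoadrenal factor, stood at 80.2 CPM in Dorsal, against 50.5 CPM in Ventral. Snai2, a crest and mesenchyme factor, stood at 4.73 and 9.81 CPM in these groups, against 221 CPM in Mesenchymal. These lists were written with results of the same cells known and describe the surroundings of Nr2f1 and Nr2f2 without saying what acts on them.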

How the data were processed

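Each of the 335 samples is 1 cell that was sorted into a well and sequenced by Smart-seq2. The authors made the deposited estimated counts of genes with kallisto 0.43.1 on GRCm38, per the submitters' processing notes. The authors also deposited a log2 table of the same genes, which was used for 1 alternative only. Of 14109 entries, 661 without a symbol (2.96% of counts) were left out.

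For each group the counts of all its cells were added up and expressed per 1000000 of the sum over genes with a symbol (CPM), with exact Poisson limits. Folds are log2 ratios of (CPM + 1). Genes with at least 100 counts over both groups were called at 2-fold. Shares of positive cells used 5 counts after thinning to 310000 counts (random seed 20), with Clopper-Pearson limits, all at 95% and for counting error only. Of the cells, 1 HSC, 1 Dorsal, 9 Ventral and 19 Mesenchymal lay below that depth and are in no share or marker class. Calculations used Python 3.11.15, NumPy 2.4.6, SciPy 1.17.1 and pandas 2.3.3. The calls were tested on simulated data in which cells of a group differed only by depth and counting error. That setting does not cover a gene whose counts lie mostly in a single cell, as for Nr2f1 in Ventral.

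The genes, the lists and the rule for named genes were chosen with earlier results of these data known. The rule takes the 8 genes with the highest mean rho, the 3 highest within each group, and any measured member of a fixed list. Genes compared reached 5 counts in 25% or more of each group's cells. The Wt1 or Pax2, Col3a1, Ptprc and Cdh5 classes of Ngfr+ cells and the splits of Mesenchymal cells were chosen after values were seen. The first marker reached in the order Sox10, Ptprc, Cdh5, Col3a1, then Wt1 or Pax2 set a cell's class. Doublets were not called, because wells received single cells. Coordinates and transcripts are from GENCODE M21. A marker planned for the classes, and the marker list that holds it, are not reported here.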

Additional observations from a re-analysis of the deposited data

How the results depend on the processing

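The results are descriptions with no test, and a value counted as moved when it left its 95% counting limits. Of the 76 alternative log2 folds 12 stayed within these limits and 64 did not, and 16 of the 64 changed sign. Of these 16, 7 were for Nr2f1 in Dorsal against Ventral, 7 for Nr2f1 in Ventral against Mesenchymal and 2 for Nr2f2 in Dorsal against Ventral. Of the shares of positive cells 31 stayed and 9 moved, and of the shares of all genes 7 and 5. No paired analysis was possible because the labels give no replicate numbers and each group is 1 pool. The alternatives with marker thresholds of 3 and 10 counts, the values of all Ventral cells with Wt1 and the equal weighting without Ventral 41 were chosen after seeing the data. The depth limits HSC to an upper bound, and differences between embryos could not be seen.

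For Nr2f1 in Dorsal against Ventral the log2 fold of -1.53 turned positive in 7 settings. It was 0.0029 with cells weighted equally and 0.23 with equal weights without Ventral 41. Leaving out Ventral 41 gave 0.74, leaving out the wells that share its index as well 0.77, and leaving out the deepest cell of each group 0.78. Cells with odd i7 index gave 1.004 and the deposited log2 table a mean difference of 0.90. Cells with even i7 index, which include Ventral 41, gave -2.42, and a pseudocount of 10 CPM -1.36. For Nr2f2 the fold of -0.50 was -0.39 with equal weights, -0.37 with equal weights without Ventral 41, -0.30 without Ventral 41, -0.031 without it and the wells that share its index, and -0.31 without the deepest cells. Odd-index cells gave 0.043 and even-index cells -0.82. It was -0.46 without the 2 genes with the largest share of counts in the totals, -0.45 with a pseudocount of 10 CPM and 0.11 in the log2 table.

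In Ventral against Mesenchymal, Nr2f1 had a log2 fold of 0.17. It was -1.82 with equal weights, -2.04 with equal weights without Ventral 41, -2.11 without Ventral 41, -2.13 without it and the wells that share its index, and -2.24 without the deepest cells. Odd-index cells gave -2.42 and even-index cells 1.11. It was 0.066 without the 2 genes and -3.64 in the log2 table. Nr2f2, at -0.97, was -1.25, -1.26, -1.16, -1.44 and -1.24 under the same 5 changes of cells. Odd-index cells gave -1.47 and even-index cells -0.63. It was -1.07 without the 2 genes, -0.90 with a pseudocount of 10 CPM and -2.64 in the log2 table.

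In Dorsal against Mesenchymal, Nr2f1 at -1.36 was -1.81 with equal weights, -1.46 without the deepest cells, -1.42 with odd and -1.31 with even index, -1.42 without the 2 genes, -1.21 with a pseudocount of 10 CPM and -2.73 in the log2 table. Nr2f2 at -1.47 was -1.64, -1.55, -1.43 in odd-index cells, -1.53 without the 2 genes, -1.35 with a pseudocount of 10 CPM and -2.52 in the log2 table. In HSC against Mesenchymal, Nr2f1 at -6.64 was -6.88 with equal weights, -6.76 without the deepest cells, -6.78 without the 2 genes, -8.78 and -3.62 with pseudocounts of 0.1 and 10 CPM, and -6.32 in the log2 table. Nr2f2 at -7.34 was -7.45 with equal weights, -6.99 with odd and -7.60 with even index, -7.49 without the 2 genes, -9.75 and -4.22 with these pseudocounts, and -6.92 in the log2 table. Every setting kept both genes lower in HSC than in Mesenchymal and lower in Dorsal than in Mesenchymal.

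With at least 1 count as the rule for a positive cell, Nr2f1 shares were 7.81% in HSC, 72.8% in Dorsal and 62.5% in Ventral, and Nr2f2 shares 7.81% in HSC, 80.4% in Dorsal and 78.8% in Ventral, with 95.7% in Mesenchymal. With at least 10 counts the Dorsal Nr2f1 share was 41.3%, and in odd-index cells the Ventral Nr2f1 share was 25%. Without Ventral 41 the shares of all genes were 6.57% higher and 6.83% lower in Dorsal against Ventral and 10.7% lower in Ventral against Mesenchymal. With no filter on counts they were 15.8% higher and 21.7% lower in HSC against Mesenchymal. In marker classes 31 shares stayed within their limits, but most classes hold few cells and their limits are wide. The Nr2f1 share of Ventral cells with Col3a1 was 72.7% (39.03 to 93.98). It was 58.3% and 88.9% at marker thresholds of 3 and 10 counts, and still counted as stayed. The Nr2f2 share of Dorsal cells with none of the markers was 40% (2 of 5), and 0% at a marker threshold of 3 counts (1 cell).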
